A study of Mus musculus with 3 samples.

Results

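Wells of single mouse heart cells that held much of the natriuretic peptide transcript Nppb were set against wells of the same library that held little of it. Wells with at least 1000 counts and 300 detected genes were taken from 3 libraries, each count was scaled to counts per 1000000 counts of nuclear-encoded mouse genes (CPM), and wells with at least 1000 CPM of the macrophage genes Lyz2, C1qa, C1qb and C1qc together, or of the fibroblast genes Dcn, Col1a1, Col3a1 and Lum together, were dropped. A well was called Nppb-high at 500 CPM or more and Nppb-low below 50 CPM, and in the day 3 library only wells with at least 1000 CPM of Ino80 entered. Of 3394 wells in the tables, 1065 fell into the classes, 858 of them Nppb-high and 207 Nppb-low. The classes were chosen by the measured Nppb level, so Nppb itself was left out of every call. The libraries were made from heart tissue labelled adult cardiomyocyte, from animals given tamoxifen (written tarmoxifen in the labels), and a single library was made for each of days 1, 2 and 3. The genotype labels read D1_INO80_OE and D2_INO80_OE for days 1 and 2, and the day 3 library carries D3_INO80_OE and D3_Ctrl together, with no assignment of its wells to either genotype. The series title gives the mice as Myh6-MCM;Ino80fl/fl; Myh6-MCM is a Cre recombinase that tamoxifen activates and that the alpha-myosin promoter drives in cardiomyocytes. The title's Ino80fl/fl and the labels' INO80_OE differ, and which of them holds was not settled here. No number of animals per library was found in the labels, and the animals' age is given only as adult.

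Nppb encodes B-type natriuretic peptide, a hormone that heart muscle cells release and that lowers blood pressure and blood volume through the guanylyl cyclase receptor Npr1. Its gene is switched on in the heart by stretch, pressure load, injury and failure, and it is a standard member of the fetal or stress program together with Nppa, which encodes atrial natriuretic peptide, Ankrd1, Acta1 and Myh7. Ino80 is the motor protein of INO80, a complex that moves nucleosomes.

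The promoters of both natriuretic peptide genes are shown because the classes rest on the one gene and the other is its neighbour on chromosome 4 (mm10), where Nppb spans 147985788 to 147987205 and Nppa spans 148000722 to 148002079, both on the plus strand. The sequences run from 250 bases before to 50 bases after the RefSeq start site (build GRCm38.p6), 5′ to 3′ on the plus strand, at chr4:147985650-147985949 for Nppb and chr4:148000472-148000771 for Nppa. Capitals mark matches, on either strand, to AGATAA (the letters of a GATA factor motif) and GGAATG (the letters of the M-CAT motif of TEAD factors). TGANTCA, an AP-1 motif, was searched too.
Nppb: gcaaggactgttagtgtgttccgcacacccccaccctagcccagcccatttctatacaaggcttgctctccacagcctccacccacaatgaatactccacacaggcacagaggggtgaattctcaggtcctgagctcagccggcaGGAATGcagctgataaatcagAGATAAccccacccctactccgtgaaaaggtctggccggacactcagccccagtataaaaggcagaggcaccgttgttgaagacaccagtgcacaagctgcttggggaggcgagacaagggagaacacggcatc
Nppa: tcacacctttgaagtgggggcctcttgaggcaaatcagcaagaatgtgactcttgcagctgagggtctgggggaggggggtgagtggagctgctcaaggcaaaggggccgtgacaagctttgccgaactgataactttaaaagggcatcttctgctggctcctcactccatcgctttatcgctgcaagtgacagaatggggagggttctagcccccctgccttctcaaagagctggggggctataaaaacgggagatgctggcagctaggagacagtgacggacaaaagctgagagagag
The Nppb window held GGAATG at position -105 and AGATAA at position -84 from the RefSeq start site, each once, and the motifs did not overlap. The Nppb gene span given above begins before that start site, and both matches lay inside the span. The Nppa window held none of the 3. Among 32851 promoters of the same length, AGATAA was found in 11.2%, GGAATG in 14.7% and TGANTCA in 7.81%.

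The libraries held 487461107, 452070922 and 484369736 counts on days 1, 2 and 3, in 1232, 1063 and 1099 wells. After the minimum, 1225, 1059 and 1092 wells were left, and the macrophage and fibroblast genes took out 261, 217 and 150 of them. On day 3 another 509 wells had less Ino80 than the rule asks. The wells that entered numbered 964, 842 and 433, with medians of 323610, 351766 and 307645 counts per well. Well barcodes were shared between libraries, 278 between days 1 and 2 and 67 between all 3, and a barcode names a well position and not a cell. The ventricular cardiomyocyte markers, 12 genes such as Myh6, Myl2 and Tnnt2, were all detected in every class, at a summed 117668 CPM in Nppb-high and 115261 CPM in Nppb-low wells on day 1, and 115641 against 125847 CPM on day 2.

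The share of Nppb-high wells differed widely between libraries. Of the wells that entered, 75 of 964 were Nppb-high on day 1 (7.78%, exact 95% interval 6.17 to 9.66%), 386 of 842 on day 2 (45.8%, 42.4 to 49.3%) and 397 of 433 on day 3 (91.7%, 88.7 to 94.1%). Nppb-low wells numbered 194 on day 1 (20.1%, 17.6 to 22.8%), 13 on day 2 (1.54%, 0.825 to 2.63%) and 0 on day 3, where 3 wells of 433, the limit set beside a count of 0, are 0.693% and the exact upper bound is 0.848%. The median Nppb level was 166 CPM on day 1, 471 CPM on day 2 and 1025 CPM on day 3, and the highest well reached 1570, 2842 and 7294 CPM. The lowest day 3 well that entered had 128 CPM, so day 3 gave no Nppb-low class under the rule. The comparison below exists in the day 1 and day 2 libraries only. The day 3 shares hold for wells with at least 1000 CPM of Ino80. Of the 509 wells of the same library with less Ino80, 37 were Nppb-high (7.27%) and 52 Nppb-low, with a median of 193 CPM. The day 2 Nppb-low class is 13 wells, and every day 2 ratio rests on them. These shares describe how the rule divides the libraries, and day, library and genotype mix cannot be told apart.

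The thresholds cut through a continuous distribution. On day 1 the lowest Nppb-high well had 502 CPM and the highest well outside it 499 CPM, while the highest Nppb-low well had 49.9 CPM and the lowest well outside it 50.02 CPM. On day 2 these values were 501 and 499 CPM, and 44.4 and 51.2 CPM. Within the day 1 library, 695 of 964 wells lay between the classes, as did 443 of 842 wells on day 2. Wells that the macrophage genes had taken out (on day 3 those with at least 1000 CPM of Ino80) had Nppb levels near those of the kept wells. The median was 166 CPM in kept wells against 142 CPM in 92 macrophage-marker wells on day 1, 471 against 395 CPM in 82 such wells on day 2, and 1025 against 813 CPM in 26 on day 3. A count of Nppb was found in 94.3% of kept and 94.6% of macrophage-marker wells on day 1, at median depths of 323610 and 307416 counts, and in every well of both kinds on days 2 and 3. The presence of a Nppb count thus did not tell kept from macrophage-marker wells and was not read as expression. The macrophage-marker wells of day 1 also held 97084 CPM of the ventricular cardiomyocyte markers, against 114732 CPM in all kept wells. The part of cardiomyocyte RNA shared between wells in the Nppb classes was not tested.

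**Figure D1:**
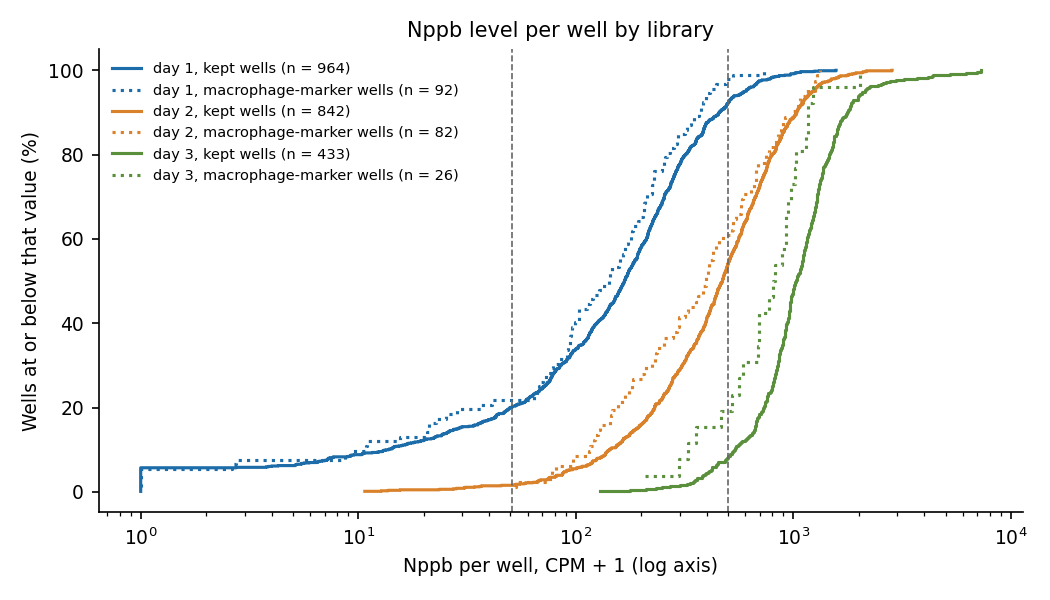
Share of wells (%) at or below each Nppb level (CPM + 1, log axis) in the libraries of days 1, 2 and 3, for wells that entered (solid) and macrophage-marker wells (dotted), with dashed lines at 50 and 500 CPM. Day 3 wells of both kinds are those with at least 1000 CPM of Ino80. The curves move to the right with the day, in both kinds of well, and the day 3 curve of the kept wells begins above the lower line, at 128 CPM.

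Nppb varied less between wells than most genes of a like level on days 1 and 2. Its coefficient of variation over wells was 0.943 on day 1, and 95.3% of the 493 genes within 1.5-fold of its mean had a larger one. On day 2 it was 0.684, with 89.6% of 192 such genes above it. On day 3 it was 0.683, and only 13.9% of 101 such genes lay above it.

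The classes had like depth and quality on day 1 and unlike ones on day 2. On day 1 the median well held 287721 counts in the Nppb-high and 288966 in the Nppb-low class, with 41.9% and 42.2% of counts from mitochondrial genes and 2627 and 2529 CPM of Ino80. On day 2 the median well held 317948 against 380786 counts and 3372 against 3311 genes. The mitochondrial share on day 2 was 29.6% in Nppb-high wells against 47.9% in Nppb-low wells, and Ino80 was 3134 against 6605 CPM. Over the wells of day 2 the Nppb level had a rank correlation of -0.38 with the mitochondrial share and -0.40 with Ino80 (842 wells of 1 library), whereas on days 1 and 3 these lay between -0.03 and 0.06. The part of mitochondrial share and Ino80 in the day 2 ratios was not tested.

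**Figure D2:**
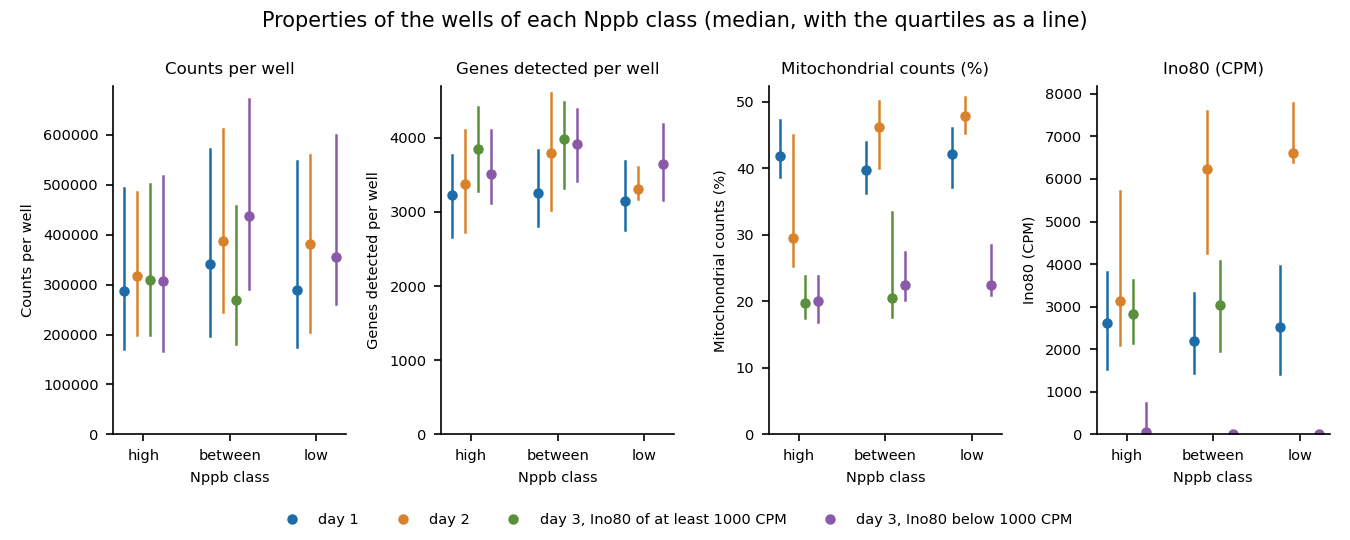
Counts per well, genes detected per well, mitochondrial counts (%) and Ino80 (CPM) by Nppb class, with the median as a point and the quartiles as a line, for days 1, 2 and both sets of day 3 wells. On day 2 the mitochondrial share stood at 29.6% in Nppb-high against 47.9% in Nppb-low wells, while on day 1 the classes lay side by side.

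Markers of other cell types were present in both classes. The 12 endothelial markers summed to 1408 CPM in Nppb-high against 1611 CPM in Nppb-low wells on day 1, and 1373 against 1248 CPM on day 2. The macrophage markers summed to 95.3 against 95.9 CPM on day 1 and 126 against 69.9 CPM on day 2, the fibroblast markers to 432 against 377 CPM and 262 against 402 CPM. The 8 atrial cardiomyocyte markers summed to 7343 against 5315 CPM on day 1 and 193 against 59.7 CPM on day 2. Both atrial sums leaned on few wells: of the counts of Sln, a small inhibitor of the atrial calcium pump, 60.2% came from 1 of the 75 Nppb-high wells of day 1, and the 13 Nppb-low wells of day 2 held 1 count of it. The erythroid markers summed to 2026 against 39.2 CPM on day 1 and 851 against 481 CPM on day 2. On day 1, 98.8% of the Hbb-bs and 98.4% of the Hba-a1 counts of the Nppb-high class came from 1 well. In the Nppb-low class of day 2, the endothelial marker Cldn5, the fibroblast markers Pdgfra and Tcf21 and the atrial marker Mybphl had no count.

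No gene passed the test between Nppb-high and Nppb-low wells over the libraries. Counts were summed per library and class, giving 4 sums from 2 libraries, and the sums were compared in edgeR's quasi-likelihood test with the library as a block. Of 6395 genes with a mean of at least 10 CPM, 0 were called higher (background 0%) and 0 lower (0%) at a Benjamini-Hochberg adjusted p under 0.05. The smallest adjusted p was 0.993, and 150 genes (2.35%) had an unadjusted p under 0.05. DESeq2 on the same sums called 11 higher (0.172%) and 35 lower (0.547%). The edgeR fit had 1 residual degree of freedom. With the library as a block, the p-values rest on how far the Nppb-high over Nppb-low ratio differed between these 2 libraries. The spread was also pooled over genes, and such a difference may be technical. The SE beside a fitted log2 fold change was derived from the F statistic of this test.

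The rule asks for genes that moved alike in the libraries, and about as many genes went opposite ways as the same way. With 5 CPM added to each level, 351 genes (5.49%) were at least 1.5-fold higher in the Nppb-high class of both libraries and 346 (5.41%) at least 1.5-fold lower, 697 in all. Another 699 genes passed the same fold in opposite directions, 205 higher on day 1 and lower on day 2, and 494 the other way round. In single libraries, 783 genes (12.2%) were past the fold upward and 1229 (19.2%) downward on day 1, against 2378 (37.2%) and 1577 (24.7%) on day 2. Thus the 351 shared genes were 44.8% of those higher on day 1 and 14.8% of those higher on day 2. Across the 6395 genes the log2 ratios of the libraries had a Pearson r of 0.02 and a Spearman rho of 0.02, with genes not being independent. Most of the shared genes were low: among 1239 genes with a mean of at least 100 CPM, 26 passed the fold the same way and 25 opposite ways. The median log2 ratio over all genes was -0.06 on day 1 and 0.21 on day 2, and the ratios below are to be read against these.

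**Figure D3:**
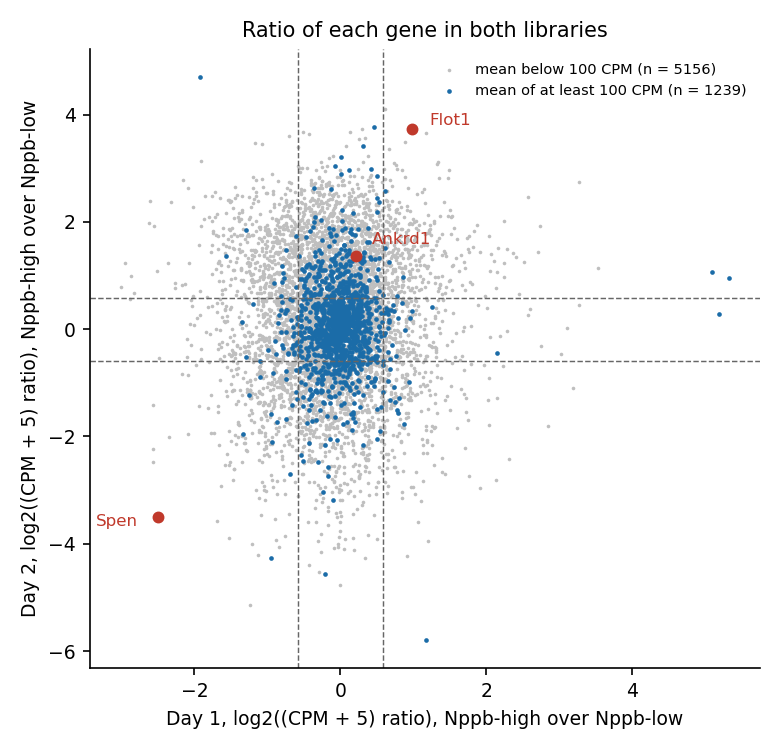
Log2 ratio of CPM + 5, Nppb-high over Nppb-low, of each of 6395 genes on day 1 (x axis) and day 2 (y axis), with dashed lines at 1.5-fold and genes of at least 100 CPM in blue. The cloud is wider on day 2 and has no slope (Pearson r 0.02), with 699 genes in the corners of opposite sign and 697 in those of the same sign.

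Because fewer than 5 genes were called, the named genes were taken from the 697 that passed the fold alike. Further conditions were a like direction when CPM was averaged over wells, no opposite one in the share of wells with counts, counts in enough wells, and no single well with more than 25% of the counts of the class where the gene was higher. On the higher side 42 of 351 genes met these conditions and the first 15 by the smaller of both ratios are named. On the lower side 0 of 346 met them. There the limit on single wells applied to the 13 Nppb-low wells of day 2, while for the higher genes it applied to the 75 and 386 Nppb-high wells, so the counts of both sides cannot be compared. In the 15 named genes 26.3% (Flot1) to 100% (Trmt10c) of the Nppb-low counts of day 2 came from 1 well. No named gene passed the test, and each had an adjusted p of 0.993 in edgeR.

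Of the named genes the largest log2 ratio on day 2, with 5 CPM added, was the 3.73 of Flot1, which encodes flotillin-1, a scaffold of lipid rafts (chromosome 17, 35823230 to 35832791). It had 165 CPM in Nppb-high and 80.9 CPM in Nppb-low wells on day 1, and 139 against 5.88 CPM on day 2. Counts were found in 73.3% against 68.0% of wells on day 1 and in 66.1% against 53.8% on day 2, where the Nppb-low class held 19 counts in all. The log2 ratio of the counts was 1.03 (counting interval 0.957 to 1.11) on day 1 and 4.56 (3.92 to 5.29) on day 2, and the fitted log2 fold change was 2.70 ± 0.98 (SE, 2 libraries, edgeR, unadjusted p = 0.031). Flot1 also had higher levels in the Nppb-high wells of both day 3 sets. Day 3 wells with Ino80 below 1000 CPM had 248 CPM in the Nppb-high and 173 CPM in the Nppb-low class, outside the rule, and the Nppb-high wells of day 3 had 128 CPM against 60.2 CPM in the wells between the thresholds. It was called by DESeq2 (adjusted p = 0.0238) and by limma on the mean of per-well CPM (adjusted p = 0.00374). In edgeR it was called without the filter on low counts (adjusted p = 0.0444) and not with it.

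Among the other named genes, those of mitochondria were Trmt10c, a subunit of mitochondrial RNase P, Mrpl40, a protein of the large mitochondrial ribosomal subunit, and Mtfr1 and Mtfp1, both linked to mitochondrial fission. Trmt10c had 39.7 against 12.5 CPM on day 1 and 32.3 against 0.309 CPM on day 2, where 1 count stood in the Nppb-low class. Mrpl40 had 112 CPM in Nppb-high and 52.0 CPM in Nppb-low wells on day 1, and 46.6 against 7.73 CPM on day 2. Mtfp1 had 104 against 53.9 CPM and 80.7 against 34.0 CPM on these days. Genes of the nucleus were Nsmce1, a subunit of the SMC5/6 complex, at 157 against 70.0 CPM on day 1 and 129 against 17.6 CPM on day 2, Eapp, an E2F-associated phosphoprotein, at 169 against 86.1 CPM and 97.2 against 31.9 CPM, and Polr1a, the largest subunit of RNA polymerase I, at 75.3 against 38.0 CPM and 45.5 against 9.90 CPM. Polr1a overlaps Gm26628 on the opposite strand, and the strand setting of the counting is not known here. Angptl2, a secreted angiopoietin-like protein, had 135 against 59.7 CPM and 71.8 against 25.1 CPM. Ptpn12, Retreg2, Mllt6, Zfyve16, Ranbp10, Ilvbl and Mtfr1 completed the set, at 24.6 to 61.2 CPM in the Nppb-high class of day 1. In all 15 the Nppb-low class of day 2 held few counts, at most 110 (Mtfp1). The mean log2 ratio turned negative under other settings in 6 of the 15. It was -0.34 for Trmt10c with Nppb-low set below 100 CPM, -0.48 for Ilvbl with Nppb-high from 1000 CPM, and -0.19 for Mtfp1 with all day 3 wells as another pair. Between the 25% of wells highest and the 25% lowest in Nppb it was -0.20 for Polr1a, -0.21 for Retreg2 and -0.34 for Mllt6.

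In other wells the named genes did not keep one direction. In the day 3 wells with Ino80 below 1000 CPM, Ilvbl had a log2 ratio of 2.38 and Angptl2 of 0.72, but Zfyve16 had -1.98, Ranbp10 -0.81 and Trmt10c -0.60. Flot1, Mrpl40, Mtfr1 and Eapp were the named genes with positive ratios both there and between the Nppb-high and the between-threshold wells of day 3. Their log2 ratios in these 2 sets were 0.51 and 1.03 for Flot1, 0.35 and 0.15 for Mrpl40, 0.47 and 1.27 for Mtfr1, and 0.27 and 0.46 for Eapp.

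The same held for all genes that passed the fold alike. In the day 3 wells with Ino80 below 1000 CPM, 37 Nppb-high and 52 Nppb-low wells outside the rule, 182 of the 351 higher genes (51.9%) had a positive ratio, against 52.7% of all 6395 genes. Of the 346 lower genes, 161 (46.5%) had a negative ratio there, against 47.0% of all. Between the Nppb-high and the between-threshold wells of day 3, 52.4% of the higher genes had a positive ratio against 49.7% of all, and 47.7% of the lower genes had a negative ratio against 50.3% of all. The direction shared by days 1 and 2 was thus found on day 3 about as often as over all genes.

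No gene of the fetal and stress list passed the test. Of 23 genes in the list 17 were measured, 0 were called, and 8 were higher and 2 lower in both libraries, beside 1698 and 1558 of 6395 genes. The list's median log2 ratio was 0.15 on day 1 and 0.13 on day 2, beside -0.06 and 0.21 over all genes. Nppa, the other cardiac natriuretic peptide and in adult mice mainly atrial, had 162 CPM in Nppb-high and 131 CPM in Nppb-low wells on day 1, and 14.4 against 1.24 CPM on day 2, where the Nppb-low class held 4 counts. Its adjusted p in edgeR was 0.993. Of the Nppa counts of the Nppb-high class of day 1, 39.9% came from 1 well. Acta1, the skeletal isoform of alpha-actin, had 1163 against 1027 CPM on day 1 and 2209 against 2024 CPM on day 2. Myh7, the slow myosin that the fetal mouse ventricle uses, had 369 against 357 CPM and 328 against 347 CPM, and Myh6, its adult counterpart, had 12496 against 13233 CPM and 11183 against 12944 CPM. The counting interval of the log2 ratio of Myh7 ran from 0.00 to 0.09 on day 1 and from -0.17 to 0.01 on day 2.

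Ankrd1 was higher in the Nppb-high class on both days and in both sets of day 3 wells, but it did not pass the test. Ankrd1 encodes the cardiac ankyrin repeat protein, which sits on titin and moves to the nucleus under stretch (chromosome 19, 36111961 to 36120099). It had 540 CPM in Nppb-high and 465 CPM in Nppb-low wells on day 1, with a log2 ratio of 0.21 (counting interval 0.18 to 0.25), and 1373 against 531 CPM on day 2, with a log2 ratio of 1.37 (1.30 to 1.44). The wells between the thresholds had 455 CPM on day 1 and 859 CPM on day 2. In the wells the rule left out on day 3, those with Ino80 below 1000 CPM, it had 1558 CPM in the Nppb-high and 590 CPM in the Nppb-low class. In the day 3 wells that entered it had 4243 CPM in Nppb-high against 3406 CPM in the between-threshold wells. The fitted log2 fold change was 0.79 ± 0.31 (SE, 2 libraries, edgeR, unadjusted p = 0.041, adjusted p = 0.993). In the Nppb-low class of day 2, 31.0% of its counts came from 1 of 13 wells. Among wells inside the quartiles of the mitochondrial share of their library, the log2 ratios were 0.80 on day 1 and 1.38 on day 2. Inside the quartiles of Ino80 they were 0.31 and 1.45. On day 2 each of these ratios rested on 8 Nppb-low wells. The day 2 quartiles (27.3 to 49.1%, and 2560 to 7148 CPM of Ino80) held the medians of both classes. These limits thus did not ensure like classes, and the part of either property in the Ankrd1 ratios was not tested. With Nppb-high set at 1000 CPM or more, which left 8 wells on day 1, the day 1 ratio was -0.02.

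**Figure D4:**
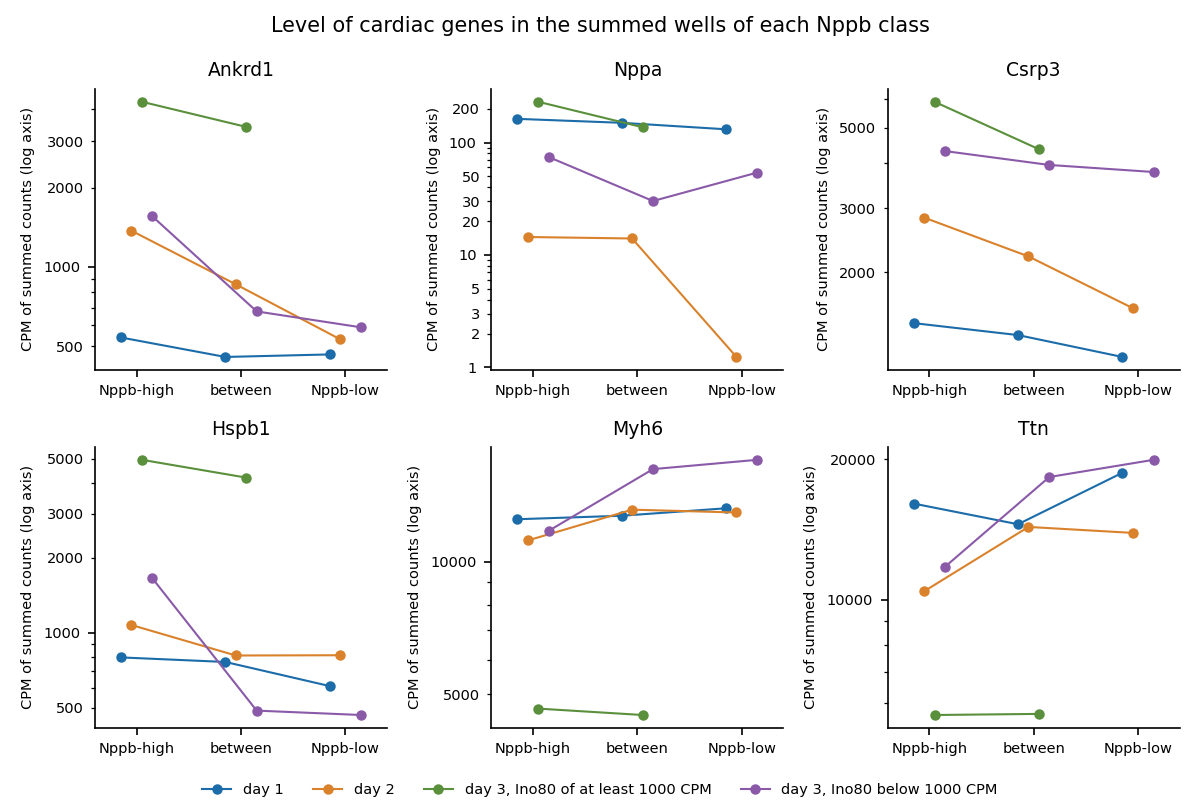
Level (CPM of summed counts, log axis) of Ankrd1, Nppa, Csrp3, Hspb1, Myh6 and Ttn in Nppb-high wells, wells between the thresholds and Nppb-low wells, for days 1 and 2 and both sets of day 3 wells (the day 3 wells that entered have no Nppb-low class). The 3 lines of Ankrd1 that span both classes end lower at the Nppb-low side, with 590 CPM or less there, while day 1 changes little (540 against 465 CPM).

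Mechanosensing and injury genes were compared likewise. Of 24 mechanosensing and Z-disc genes 20 were measured and 0 called, with 9 higher and 3 lower in both libraries, beside 1698 and 1558 of 6395 genes. The list's median log2 ratio was 0.004 on day 1 and 0.32 on day 2, beside -0.06 and 0.21 over all genes. Csrp3, the muscle LIM protein of the Z-disc, had 1452 CPM in Nppb-high and 1173 CPM in Nppb-low wells on day 1 and 2830 against 1596 CPM on day 2. In day 3 wells with Ino80 below 1000 CPM it had 4309 against 3775 CPM. Its fitted log2 fold change was 0.57 ± 0.17 (SE, 2 libraries, edgeR, adjusted p = 0.993). Hspb1, a small heat shock protein, had 796 against 611 CPM on day 1, 1074 against 812 CPM on day 2, where 59.0% of the counts of the Nppb-low class came from 1 well, and 1655 against 467 CPM in day 3 wells with Ino80 below 1000 CPM. Of the cardiomyocyte injury genes, 10 of 21 were measured and 0 called. Lcn2, the iron-binding lipocalin secreted in injury and inflammation, passed the fold in both libraries with 39.7 against 22.3 CPM and 65.9 against 6.19 CPM, and had 52.7 against 4.17 CPM in day 3 wells with Ino80 below 1000 CPM. The Nppb-low class of day 2 held 20 Lcn2 counts in 3 of its 13 wells, 85.0% of them from 1 well. In the Nppb-high class of day 1, 23.8% of the Lcn2 counts came from 1 well. Timp1, an inhibitor of matrix metalloproteinases, passed the fold with 17.0 against 3.99 CPM and 20.2 against 1.24 CPM, where the Nppb-low class of day 2 held 4 counts. Of the Timp1 counts of the Nppb-high class of day 1, 95.8% came from 1 well.

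Across 4 sets of wells, the 2 libraries and both day 3 sets, 475 of 6395 genes (7.43%) had positive ratios throughout and 401 (6.27%) negative ones. Of the fetal and stress list 5 of 17 measured genes were positive in all 4 sets, Acta1, Ankrd1, Ccn2, Csrp3 and Nppa, and the intermediate filament gene Des was negative in all. Ccn2, a matricellular target of YAP and TEAD, had 25.1 against 22.2 CPM on day 1 and 51.0 against 24.1 CPM on day 2. Of the injury list 4 of 10 were positive in all 4 sets, Clu, Lcn2, Timp1 and Tnfrsf12a, and of 18 heat shock and chaperone genes 3 were, the small heat shock proteins Cryab, Hspb1 and Hspb6, while the mitochondrial chaperonin Hspd1 was negative in all. Of 17 immediate early genes Dusp1, Fos and Junb were. These lists were made with earlier results of these data known, and no test was made of them.

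No contractile, calcium or metabolic gene passed edgeR's test in the main comparison, with the filter on low counts. Under other settings with that filter, edgeR called some such genes higher. With mitochondrial counts in the total, these included the atrial markers Sln (adjusted p = 0.00148) and Myl7 (adjusted p = 0.019). With Nppb-high from 1000 CPM they included Sln (adjusted p = 0.00722) and Cox7a1 (adjusted p = 0.0278). In the Nppb-high class of day 1, 1 well held 60.2% of the Sln and 64.5% of the Myl7 counts. The counts below stand beside 1698 of 6395 genes higher and 1558 lower in both libraries, and beside 7.43% positive and 6.27% negative in all 4 sets. Of 24 sarcomere genes 8 were higher and 6 lower in both libraries, with medians of 0.04 on day 1 and 0.11 on day 2. Ttn, the giant spring of the sarcomere, had 16065 CPM in Nppb-high and 18700 CPM in Nppb-low wells on day 1 and 10420 against 13901 CPM on day 2, with a fitted log2 fold change of -0.32 ± 0.06 (SE, 2 libraries, edgeR, unadjusted p = 0.0016, adjusted p = 0.993). It was called lower by limma on the mean of per-well CPM (adjusted p = 4.09e-06) and without the filter on low counts (adjusted p = 0.0101). Of 19 calcium cycling genes, 5 were higher and 7 lower in both libraries. Their median log2 ratio was 0.06 on day 1, -0.33 on day 2 and -0.53 in day 3 wells with Ino80 below 1000 CPM, beside -0.06, 0.21 and 0.05 over all genes. Between the Nppb-high and the between-threshold wells of day 3 it was 0.10, beside -0.003 over all genes. The 2 calcium cycling genes that passed the fold on days 1 and 2, both lower, were Jph2 and Cacna2d1. Like all 346 genes lower in both libraries, these 2 did not meet the further conditions set for named genes. Jph2, which tethers the sarcoplasmic reticulum to the T-tubule, had 21.4 against 59.0 CPM on day 1 and 51.5 against 107 CPM on day 2. Cacna2d1, a calcium channel subunit, had 76.2 against 122 CPM and 55.4 against 133 CPM. Ryr2, the calcium release channel, had 1061 against 1361 CPM and 708 against 972 CPM. Of 25 measured fatty acid oxidation genes 4 were higher and 7 lower in both libraries, and none was positive in all 4 sets of wells while 5 were negative, Acads, Acsl1, Decr1, Hadhb and Lpl. Of 44 nuclear oxidative phosphorylation genes, 19 were higher and 9 lower in both, with medians of 0.07 and 0.05, and 6 were positive and 0 negative in all 4 sets. Cox6a2, the muscle isoform of a cytochrome c oxidase subunit, had 10860 against 10512 CPM on day 1 and 11404 against 11054 CPM on day 2.

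**Figure D5:**
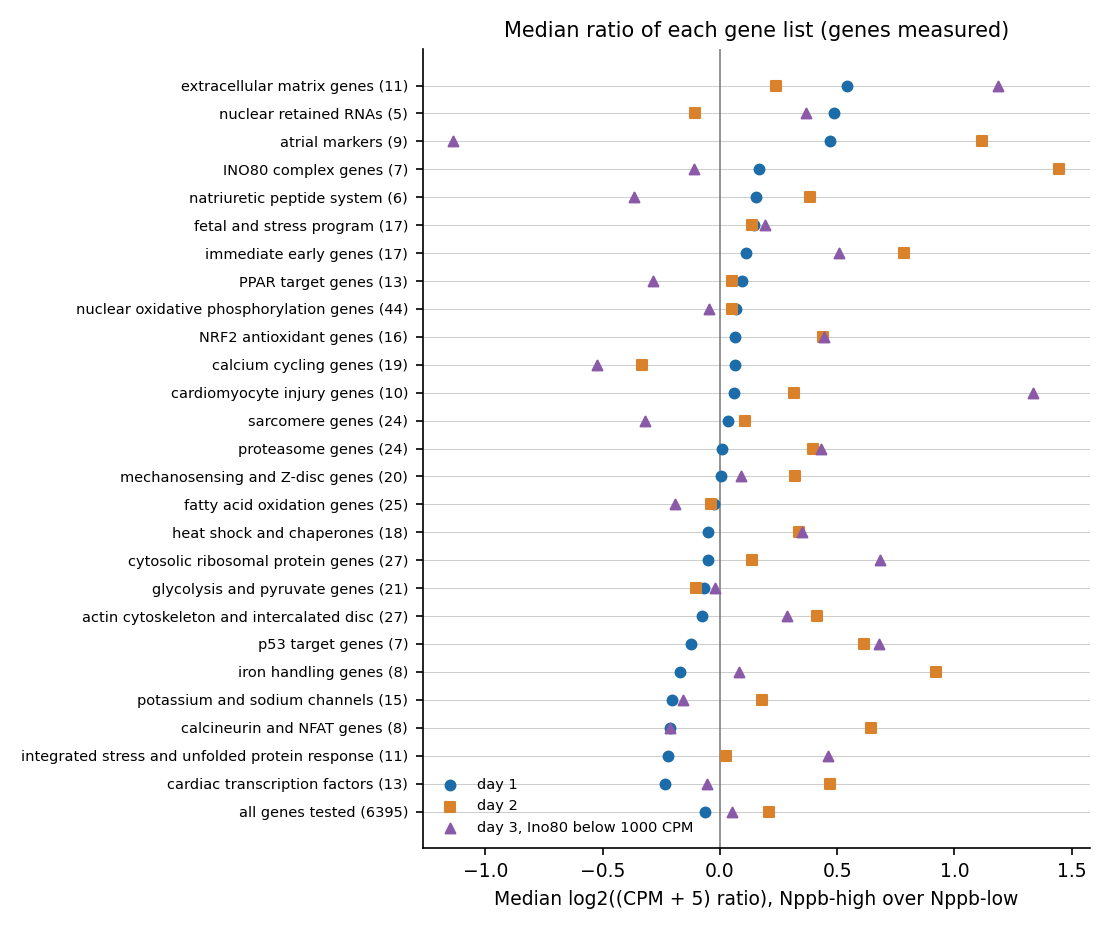
Median log2 ratio of CPM + 5, Nppb-high over Nppb-low, of each gene list on days 1 and 2 and in day 3 wells with Ino80 below 1000 CPM, with the number of genes measured in brackets and all genes tested in the bottom row. Most day 1 medians lie within 0.25 of 0, while those of day 2 and of the day 3 wells spread wider.

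Lists with fewer measured genes had wider medians. The extracellular matrix list (11 of 23 measured) had Lamb1 and Timp1 among its genes past the fold upward in both libraries and Col4a2 past it downward, with medians of 0.54 and 0.24. Lamb1 had 27.1 against 15.8 CPM on day 1 and 31.4 against 1.86 CPM on day 2. The atrial list (9 of 12 measured) had medians of 0.47 and 1.12 on days 1 and 2 but -1.14 in day 3 wells with Ino80 below 1000 CPM. Between the Nppb-high and the between-threshold wells of day 3 the median was 0.73. Between the 25% of wells highest and the 25% lowest in Nppb, with 11 genes measured, it was 0.22, -0.44 and 1.43 on days 1, 2 and 3. Kcnj3, the atrial subunit of an acetylcholine-gated potassium channel, had 103 against 47.6 CPM on day 1 and 24.9 against 3.09 CPM on day 2. The Nppb-low class of day 2 held 3232639 counts of nuclear-encoded genes in 13 wells. Its levels of Lamb1 and Kcnj3 thus rest on few counts. The INO80 complex genes (7 of 14 measured) had medians of 0.16 and 1.45 on days 1 and 2. Of these genes 4 were higher and 1 lower in both libraries, beside 1698 and 1558 of 6395 genes. Their median was -0.11 in day 3 wells with Ino80 below 1000 CPM and -0.49 between the Nppb-high and the between-threshold wells of day 3. Between the 25% of wells highest and the 25% lowest in Nppb it was 0.29, 0.15 and -0.41 on days 1, 2 and 3.

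Spen, a large RNA-binding corepressor, had lower levels in the Nppb-high class on both days and was named after its values were seen. It had 7.12 CPM in Nppb-high and 63.4 CPM in Nppb-low wells on day 1, and 29.7 against 390 CPM on day 2, with a fitted log2 fold change of -3.44 ± 0.49 (SE, 2 libraries, edgeR, adjusted p = 0.993). Of its counts in the Nppb-low class of day 2, 97.4% came from 1 of 13 wells. The Nppb-high wells of day 3 had 18.5 CPM against 97.4 CPM in the between-threshold wells, but day 3 wells with Ino80 below 1000 CPM had 55.5 CPM in the Nppb-high and 12.2 CPM in the Nppb-low class. It was among the genes called by 5 of the 7 alternatives that called any, as was Ajuba, whose 1049 counts in the Nppb-low class of day 2 all came from 1 well.

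Because no day 3 well that entered was Nppb-low, the 25% of entered wells highest and the 25% lowest in Nppb were also compared in each library. This choice was made after the data were seen. The comparison had 241, 211 and 109 wells a side and a value from every library. Of 6510 genes 0 were called by edgeR, the smallest adjusted p was 0.619, and 486 (7.47%) had an unadjusted p under 0.05. In all 3 libraries 6 genes (0.0922%) were at least 1.5-fold higher in the top 25% and 45 (0.691%) at least 1.5-fold lower. The 6 were Lrrc27, Cited2, Fam229b, Cdc40, Zcchc10 and Krt80, of which Cdc40, a splicing factor, had the highest level, at 43.9 CPM in the top and 19.7 CPM in the bottom wells on day 1, 43.6 against 24.7 CPM on day 2 and 73.0 against 37.8 CPM on day 3. In the Nppb-high and Nppb-low classes Cdc40 went opposite ways, with 16.8 against 22.7 CPM on day 1 and 32.6 against 4.02 CPM on day 2. Among the 45 were Usp25, a deubiquitinase, at 27.2 against 61.0 CPM, 36.8 against 82.1 CPM and 19.3 against 42.3 CPM, and Grk2, the kinase that desensitizes beta-adrenergic receptors, at 11.7 against 32.7 CPM, 20.2 against 48.9 CPM and 5.29 against 18.3 CPM. In the Nppb-high and Nppb-low classes Usp25 was lower on both days. Grk2 there had 11.3 against 26.0 CPM on day 1 but 25.2 against 8.66 CPM on day 2. Spen was among the 45 too, at 18.4 CPM in the top and 54.3 CPM in the bottom wells on day 1, 26.9 against 64.8 CPM on day 2 and 8.45 against 44.2 CPM on day 3 (edgeR, unadjusted p = 0.00024, adjusted p = 0.619). Ankrd1 had 508 CPM in the top and 460 CPM in the bottom wells on day 1, 1552 against 706 CPM on day 2 and 5694 against 3598 CPM on day 3 (edgeR, unadjusted p = 0.0015, adjusted p = 0.619). Smaller differences of 1 sign in all 3 libraries were found in 627 genes upward (9.63%) and 1394 downward (21.4%). Over all 6510 genes the median log2 ratios of this comparison were -0.05, -0.13 and -0.08 on days 1, 2 and 3. Of the 44 oxidative phosphorylation genes 23 were higher in all 3 libraries, with medians of 0.07, 0.18 and 0.03. Of 25 fatty acid oxidation genes 9 were lower in all 3, with medians of -0.02, -0.11 and -0.10, near those of all genes.

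Ranked well by well instead of in classes, Nppb was followed most closely by other genes in each library. Spearman correlations with the CPM of Nppb were taken over 964, 842 and 433 wells as a description, for genes with a mean of at least 50 CPM. The highest was 0.16 for Uqcrb on day 1, 0.42 for Ankrd1 on day 2 and 0.26 for Nppa on day 3. Ankrd1 had 0.06, 0.42 and 0.23 and stood 205th, first and second among 2195, 2369 and 2209 genes. Among 1764 genes ranked in all libraries, the highest least correlation was that of Uqcrb, a subunit of complex III, with 0.16, 0.20 and 0.16, followed by the cytochrome c oxidase subunit Cox6c with 0.15, 0.31 and 0.18, the complex IV-associated Ndufa4 with 0.12, 0.16 and 0.12, and Hspb1 with 0.13, 0.24 and 0.12. Most negative in all libraries was Ckm, the muscle creatine kinase, with -0.12, -0.31 and -0.11, and then Acaa2, an enzyme of fatty acid oxidation, with -0.09, -0.11 and -0.09. Wells share library, depth and any free RNA, and correlations this low in single wells are no finding by themselves.

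Short genes sat slightly above long ones. Nppb has 781 bases of exon, and among 1239 genes of at least 100 CPM the shortest 25% by exon length (78 to 1854 bases) had a median log2 ratio of 0.03 on day 1, 0.21 on day 2 and 0.14 in day 3 wells with Ino80 below 1000 CPM. The longest 25% (5762 to 116825 bases) had -0.05, -0.11 and -0.11. Between the top and bottom 25% of wells by Nppb the shortest genes had 0.05, 0.21 and 0.02 and the longest -0.10, -0.22 and -0.05 on days 1, 2 and 3. The part of length in the ratios of single genes and lists was not tested.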

How the data were processed

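Single heart cells in 3 iCELL8 libraries were measured, each with 1 deposited table. Per the labels, single live cells were picked by imaging and Nextera XT libraries were sequenced on a NovaSeq. The authors deposited raw counts per gene and well, not normalized. The submitters' processing notes name cutadapt, STAR, featureCounts and the build mm10. Versions, strand setting and any molecular identifiers were not found in the sources used here, so the counting intervals of ratios (95%) cover counting error of reads only. The intervals of shares of wells (exact binomial, 95%) count wells of 1 library as if independent. They do not cover the spread between animals or libraries. Of 55502 features 55401 are mouse genes, 55141 with a symbol in GENCODE M21. Doublets were not called. In the wells that the macrophage and fibroblast genes took out, 1 class held 4 wells or fewer on days 1 and 2, and they were not compared.

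Counts were summed per library and Nppb class and compared with edgeR 4.0.16 (R 4.3.3) in a quasi-likelihood test, with the library as a block, library size set to the nuclear-encoded total, genes of at least 10 CPM on average and Benjamini-Hochberg adjustment at 0.05. High and low sums of 1 library are paired by that library. No day 3 well that entered was Nppb-low, so 4 sums entered in place of the 6 that were planned. Ratios per library are log2((CPM + 5)/(CPM + 5)) unless counting intervals stand beside them, which are of the counts alone. The named genes needed at least 1.5-fold in both libraries, a like direction when CPM was averaged over wells, no opposite direction in the share of wells with counts, a count in at least 10% of the wells of the higher class, and at most 25% of the counts of that class from 1 well, and the first 15 were taken. Alternatives used DESeq2 1.42.0, limma 3.58.1, TMM scaling, other totals, thresholds, filters and well sets, wells thinned to 30000 counts, and each library left out. The fit was tested on simulated data. Promoters came from RefSeq tables of GRCm38.p6. The Nppb classes, the 26 gene lists and the 10 marker lists were chosen with earlier results of these data known. A few genes are not reported here.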

Additional observations from a re-analysis of the deposited data

Results flagged for a closer look

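The tables held counts for sequences that no comparison used. Over the wells past the macrophage and fibroblast rule, 61 counts fell on the 3xFlag sequence, 19 on day 1, 19 on day 2 and 23 on day 3. EGFP had 1910 counts, 744, 627 and 539 on these days. The ERCC spike-in sequences had 824 counts, 307, 247 and 270 on days 1, 2 and 3, and the SIRV spike-in sequences had 388, with 78, 220 and 90. With no control library among the tables used, these values were set only against the 3 counts that a count of 0 allows, and all lay above it. That limit does not cover stray or misassigned reads, so the counts were not read as presence of these sequences.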

How the results depend on the processing

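The count of called genes, 0 higher and 0 lower in edgeR, moved under several settings. TMM scaling called 0 higher and 3 lower (Zc3h6, Ajuba, Spen), DESeq2 11 and 35, no filter on low counts 6 and 11, limma on the mean of per-well CPM 6 and 1, a total with mitochondrial counts 5 and 5, Nppb-high from 1000 CPM 14 and 5, and wells inside the quartiles of the mitochondrial share 1 and 2. Other settings with a test called 0, and the fit with no replicate block called 0 and 0 with 351 and 346 genes past the fold.

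The 351 genes past the fold upward became 690 with no filter, 188 with mitochondrial counts in the total, 182 with wells thinned, 167 with Nppb-low below 100 CPM, 696 inside the quartiles of the mitochondrial share, 583 inside those of Ino80 and 132 with all day 3 wells as another pair. The 346 downward became 177 with mitochondrial counts in the total, 966 with Nppb-high from 1000 CPM and 63 with all day 3 wells. Settings added after the data were seen gave 6 upward and 45 downward for the top against the bottom 25% of wells by Nppb, 113 and 72 with day 3 wells of low Ino80 as another pair, 79 and 72 with day 3 high against between wells as another pair, and 8 and 18 at a mean of at least 100 CPM. Leaving out 1 library gave 351 to 1936 upward and 346 to 1709 downward: without day 1 the counts were 1936 and 1709, without day 2 875 and 1218, and without day 3 nothing changed, since it gave no pair. With 1 pair left no test could be made. More genes pass with 1 library by construction, and the cause of the other moves was not tested. Of 335 alternative values of the named genes and Ankrd1, 262 stayed within the spread and 73 moved. The mean log2 ratio over libraries reversed for Ilvbl (-0.48, Nppb-high from 1000 CPM), Trmt10c (-0.34, Nppb-low below 100 CPM), Mtfp1 (-0.19, all day 3 wells) and, in the top and bottom 25%, Retreg2 (-0.21), Mllt6 (-0.34) and Polr1a (-0.20). The 13 Nppb-low wells of day 2 limit every ratio of that day.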

Other observations

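Among 1239 genes of at least 100 CPM, 118 (9.52%) had positive ratios in all 4 sets of wells and 99 (7.99%) negative ones. The largest least ratios upward were those of Rpl36a, a cytosolic ribosomal protein, with log2 ratios of 0.66 on day 1, 0.36 on day 2, 0.44 between high and between-threshold wells of day 3 and 0.86 in day 3 wells of low Ino80, and of the mitochondrial ribosomal protein Mrps7 with 0.34, 0.72, 0.41 and 0.62. Among the genes with negative ratios was that of the scaffold protein Homer2, with -0.59, -1.29, -1.06 and -0.51. None passed the test, and these genes were ranked after their values were seen. Of 24 measured proteasome genes 6 were positive in all 4 sets, Psma6, Psma7, Psmb3, Psmb5, Psmb6 and Psmc5, and Psma1 was negative. Of 27 cytosolic ribosomal protein genes 5 were positive and 0 negative. Over all 6395 genes 7.43% were positive and 6.27% negative in all 4 sets.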
